A study of Homo sapiens with 8 samples.

Results

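The 707 regions described here were compact stretches of the genome in which each of the 4 m6A-seq samples had a peak and in which the pulled-down RNA fragments lay most densely. Peaks of the 4 samples that shared at least 1 base were joined, which gave 12221 regions in the whole series. Of these, 3875 held a peak in every sample, and 3535 of the 3875 spanned less than 3000 bases. Tag density was the number of sequenced fragments (tags) per 1000 bases of a sample's own peaks in the region. The regions were ranked by it within each sample, the 4 ranks were averaged, and the top 20% were kept. Tag density therefore chose these regions, and its values are given as a description with no test. The other 2828 compact regions and the 340 broad regions with a peak in every sample serve for comparison.

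The samples were HepG2 cells, a line derived from a human hepatocellular carcinoma, transfected either with control siRNA (siControl) or with siRNA against METTL3 (siMETTL3) and harvested after 48 h. Each group had 2 immunoprecipitated samples with their input libraries. The inputs enter only through the peak calls and their listed fold enrichment, scores and false discovery rates (FDR). The knockdown was transient, used 1 METTL3 siRNA in 1 cell line, and the METTL3 level itself is not measured by these lists. The labels do not say whether the replicates were separate cultures, so the spread between them may be technical. A sample listed between 6888 and 8577 peaks holding 1945803 to 2426342 tags. These totals are not library depth, which is unknown, so no counting interval is given. siMETTL3 replicate 2 stood apart in its peak calls, since its shortest peak had 247 bases, against 365 to 373 bases in the other 3 samples.

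METTL3 is an enzyme that adds a methyl group to adenosines within mRNA while the transcript is still in the nucleus, acting in a complex with METTL14 and WTAP. The methylated base (m6A) typically lies in a short sequence with an AC core, and an antibody against it pulls down the fragments that carry it. In m6A-seq, the number of tags in a peak depends both on how abundant a transcript is and on how much of it carries the mark, whereas fold enrichment divides the pulled-down signal by a background. The regions are given below by their hg19 positions. No gene name or sequence is given for them, because the genome tables at hand are of another build.

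The chosen regions held more than their share of the tags in peaks, which the choice on tag density largely sets. Their median tag density was 378 and 415 tags per kb in siControl replicates 1 and 2, and 405 and 334 tags per kb in siMETTL3 replicates 1 and 2. The other compact regions had 152, 173, 157 and 143 tags per kb in the same order. siMETTL3 replicate 2 was the lowest in both sets. Tags per kb are therefore not on 1 scale across samples, and where the groups are compared in density the values are also given after division by each sample's median over the compact regions. The 707 regions made up between 8.25% and 10.3% of a sample's peaks and 9.50% to 11.5% of the length of its peaks, but held 18.0% to 21.0% of its tags.

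**Figure D1:**
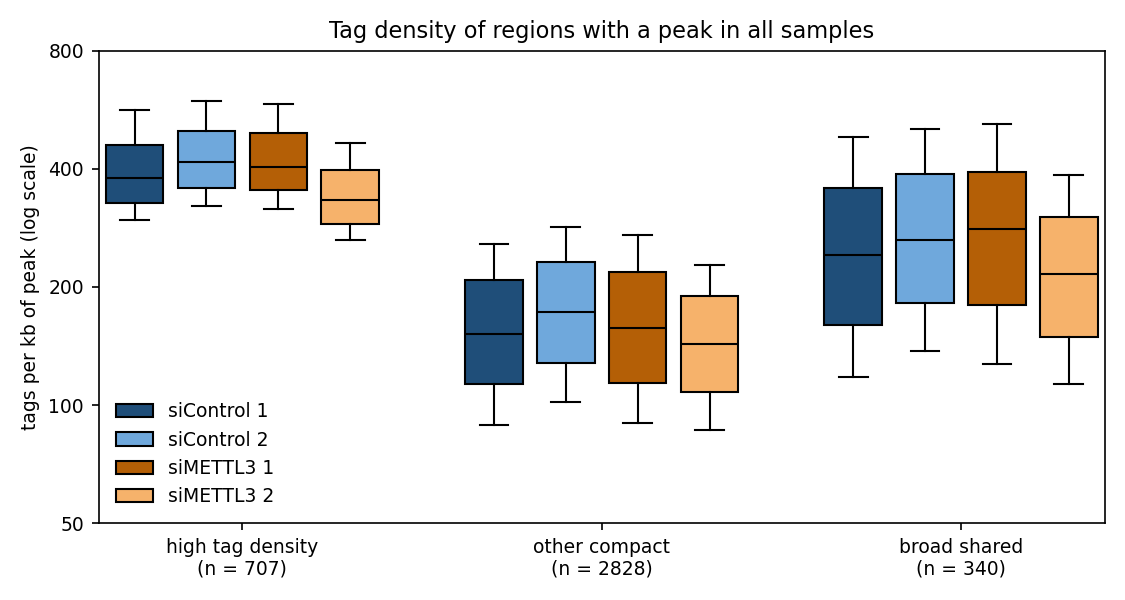
Tag density (tags per kb of peak, log scale) of regions with a peak in all 4 samples, by sample. Boxes span the middle 50% of regions with the median as a line, and whiskers run from the 10th to the 90th percentile. The median of the high tag density regions lies between 334 and 415 tags per kb, above that of the other compact and of the broad regions in every sample.

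The densest region of all was chr20:17638768-17641372, with 1069 and 1266 tags per kb in siControl and 1093 and 976 in siMETTL3. It was followed by chr20:61443319-61445484, with 982 and 1066 tags per kb in siControl and 1120 and 885 in siMETTL3. Next came chr7:5427153-5429449, with 917 and 934 tags per kb in siControl and 969 and 746 in siMETTL3. In tags per kb the groups overlapped in all 3 regions, although in the first both siMETTL3 values were below both siControl values after division by the sample median. The others among the 10 densest were chr19:1554725-1557137, chr22:29445035-29447513, chr19:1576192-1578835, chr7:5409856-5411448, chr6:7579359-7581999, chr11:57075530-57078229 and chr20:32398911-32399882. Of the 10, 8 spanned at least 2000 bases and 3 lay on chromosome 20.

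At the edge of the set, density was far lower. The last regions taken in were chr5:139907308-139909577, chr6:160146802-160149150 and chr15:90770641-90772983, the last of which had 285 and 332 tags per kb in siControl and 332 and 246 in siMETTL3. The first left out were chr21:33688538-33689667, chr17:55938822-55941045 and chr1:204042112-204043185, of which the first had 276 and 325 tags per kb in siControl and 332 and 257 in siMETTL3. Values just inside and just outside the limit thus overlapped in each sample.

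The order of the regions was largely shared by the samples. Of the 707 regions, 498 (70.4%) were in the top 20% of all 4 samples, 115 of 3 samples, 87 of 2 and 7 of 1. The average of these same 4 ranks chose the regions, so much of this overlap is set by the rule. When regions were chosen on the siControl samples alone, 591 of 707 (83.6%) were also in the top 20% chosen on the siMETTL3 samples alone. The same share was 89.0% from siControl replicate 1 to siControl replicate 2 and 85.4% from siMETTL3 replicate 1 to siMETTL3 replicate 2. Fewer regions were thus shared across the groups than within either, although the first comparison averages replicates and the others do not.

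Fold enrichment, which the choice of regions did not use but which is computed from the same pulled-down tags, was lower in these regions than in the other compact ones. The siControl samples had medians of 3.81 and 3.91 and the siMETTL3 samples medians of 3.82 and 3.87, against 4.97, 5.38, 4.85 and 5.47 in the other compact regions. The difference was −0.42 ± 0.07 on the log2 scale (mean and SD over the 4 samples, lower in 4 of 4 samples), which is 1.34-fold lower. The broad regions, with medians of 3.90 and 4.19 in siControl and 4.20 and 4.24 in siMETTL3, were much closer, and the dense regions were 1.07-fold lower than these (lower in 4 of 4 samples). No p is given, since the regions were chosen on these same samples. The range was wide, from 2.04 to 11.9 in siControl replicate 1 and from 1.97 to 10.2 in siMETTL3 replicate 2. A fold enrichment under 3 in every sample was found in 46 of the 707 regions (6.51%) and in 1 of the 2828 others. Among the 340 broad regions it was found in 15 (4.41%), so it was not particular to the dense regions. All listed peaks had a caller's score of at least 50, so regions with few tags and a low ratio may be missing from the lists. With a stricter score of at least 70 the difference was −0.44 on the log2 scale. How much the floor of 50 sets the difference in enrichment was not tested, since no peaks below it are listed.

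The peak score, −10·log10 of the caller's p-value, was higher than in the other compact regions and lower than in the broad ones. Its median was 223 and 253 in siControl and 235 and 216 in siMETTL3, against 148, 195, 143 and 168 in the other compact regions, higher in 4 of 4 samples. Against the broad regions the score was 1.56-fold lower, in 4 of 4 samples. A score of at least 300 in every sample was reached by 121 regions (17.1%), against 4.84% of the other compact regions and 30.6% of the broad ones. The listed FDR was lower than in the other compact regions, with medians of 23.8% and 20.9% in siControl and 36.2% and 27.4% in siMETTL3, against 45.3%, 31.6%, 56.1% and 34.8%. It was still high in absolute terms. An FDR of at most 50% in every sample was listed for 355 of the 707 regions (50.2%), against 27.8% of the other compact regions and 63.5% of the broad ones, and an FDR of at most 5% in every sample for 0.

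Across the compact regions in 5 equal groups by density, the median enrichment in siControl replicate 1 was 3.81 in the densest group, then 4.43, 4.99, 5.24 and 5.24. In siMETTL3 replicate 2 it was 3.87, then 4.61, 5.35, 5.94 and 5.97. Enrichment in the samples thus stood nearly at 1 level in the densest group and spread apart towards sparse regions, where siControl replicate 2 and siMETTL3 replicate 2 were above the replicates numbered 1. Within the 707 regions, Pearson's r between log2 density and log2 enrichment was −0.40, −0.47, −0.44 and −0.29 in the 4 samples, a description over regions that share a library and whose 2 measures share their tags. The score floor of the lists applies to these comparisons as well.

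**Figure D2:**
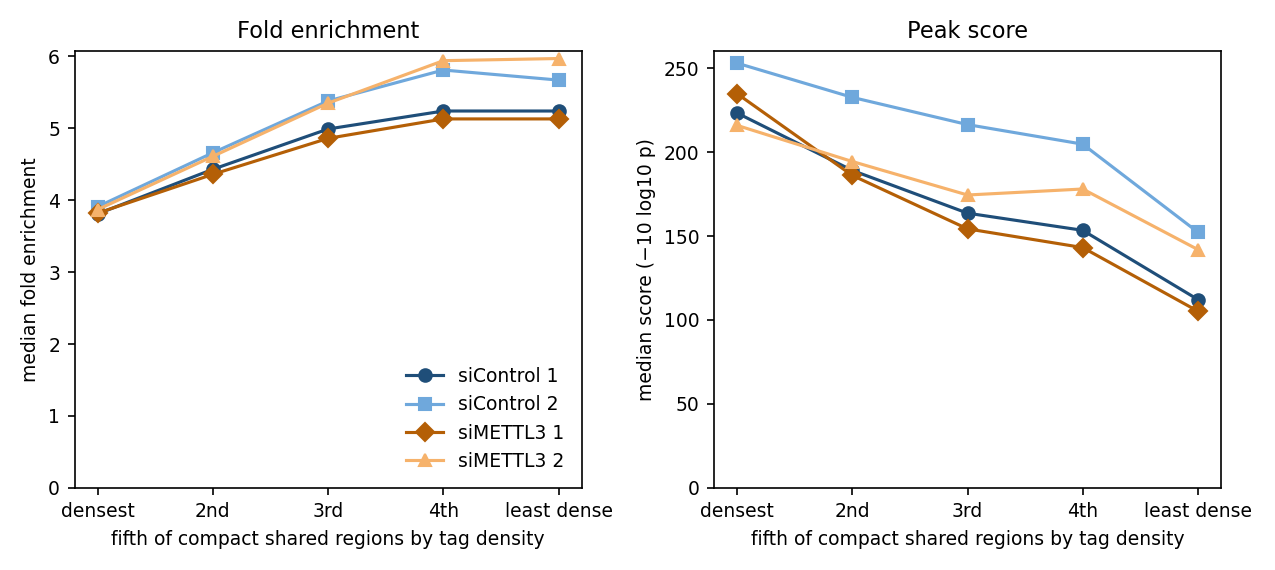
Median fold enrichment (left) and median peak score (right) of the 3535 compact regions with a peak in all samples, split into 5 groups of 707 by tag density, with 1 line per sample. The densest group has the lowest enrichment, between 3.81 and 3.91, and the highest score, between 216 and 253, in every sample.

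The 3 regions with the lowest mean enrichment were all among the 10 densest. In chr20:17638768-17641372 it was 2.24 and 1.83 in siControl and 2.04 and 2.23 in siMETTL3, in chr20:61443319-61445484 it was 2.12 and 2.06 against 2.02 and 2.28, and in chr19:1576192-1578835 it was 2.17 and 2.10 against 2.24 and 1.99. These regions combined many tags with a weak ratio, and their groups overlapped. The highest enrichment was in chr20:40161539-40162503, with 6.83 and 11.2 in siControl and 7.23 and 9.60 in siMETTL3. It was followed by chr1:90492765-90493420, with 8.86 and 7.39 against 6.44 and 7.84, and by chr5:65465735-65467119, with 9.77 and 8.56 against 5.20 and 6.60. Only the last had both siMETTL3 values below both siControl values. A very high score also occurred at an enrichment near the median of the set. In chr11:57075530-57078229 the enrichment was 3.62 and 3.82 in siControl and 3.52 and 4.13 in siMETTL3, with scores of 1425.5, 1879.4, 2034.5 and 2158.8.

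The 707 regions were somewhat longer than the other compact regions, with a median of 1450 bases against 1277. In 702 of them (99.3%) every sample had exactly 1 peak. The lower enrichment was seen in each class of length. Under 1000 bases, the median in siControl replicate 1 was 3.70 in 153 dense regions against 5.20 in 745 others. Between 1000 and 2000 bases it was 3.94 in 378 regions against 4.98 in 1619, and from 2000 bases up it was 3.55 in 176 against 4.67 in 464. In siMETTL3 replicate 2 the same pairs were 4.15 against 5.68, 3.92 against 5.47 and 3.68 against 5.10. The score, by contrast, increased with length within the dense regions, from 148 to 235 to 278 in siControl replicate 1. It also did so in the other compact regions, from 108 to 155 to 217 in the same sample.

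Peak summits, the positions of highest signal, lay close together in these regions. The distance between the outermost of the 4 summits had a median of 57 bases, against 75 in the other compact regions and 92 in the 20% with the lowest density. It was at most 50 bases in 332 regions (47.0%), against 32.7% and 26.6%, and over 500 bases in 46 regions (6.51%). siMETTL3 replicate 2 decided much of this spread. Summits of the other 3 samples differed in the median by 11 to 13 bases from each other, and those of siMETTL3 replicate 2 by 29 to 35 bases from each of them. Without siMETTL3 replicate 2 the median distance between the outermost summits was 24 bases. With sign, the median distance of its summits from those of the other samples was between −2 and −1 bases. Since siControl replicate 1, siControl replicate 2 and siMETTL3 replicate 1 were alike, the summit positions did not separate the groups.

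The regions were spread over all 23 chromosomes compared, 1 to 22 and X, but not in equal shares. Chromosome Y was not compared. On chromosome 20, 31 of 82 compact regions (37.8%) were among the 707, from chr20:1160841-1162560 to chr20:62904425-62905804. On the other chromosomes compared the share ran from 12.3% on chromosome 3 to 27.1% on chromosome 22. The chromosome was singled out after its value was seen. Ranked in each sample alone, 34.1% and 36.6% of its compact regions were in the top 20% in siControl and 39.0% and 37.8% in siMETTL3. Chromosome 20 also had the highest median density of the 23 chromosomes compared in each sample, 224, 267, 245 and 212 tags per kb. Enrichment in its 31 dense regions had medians of 3.81 and 3.55 in siControl and 3.41 and 3.35 in siMETTL3.

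**Figure D3:**
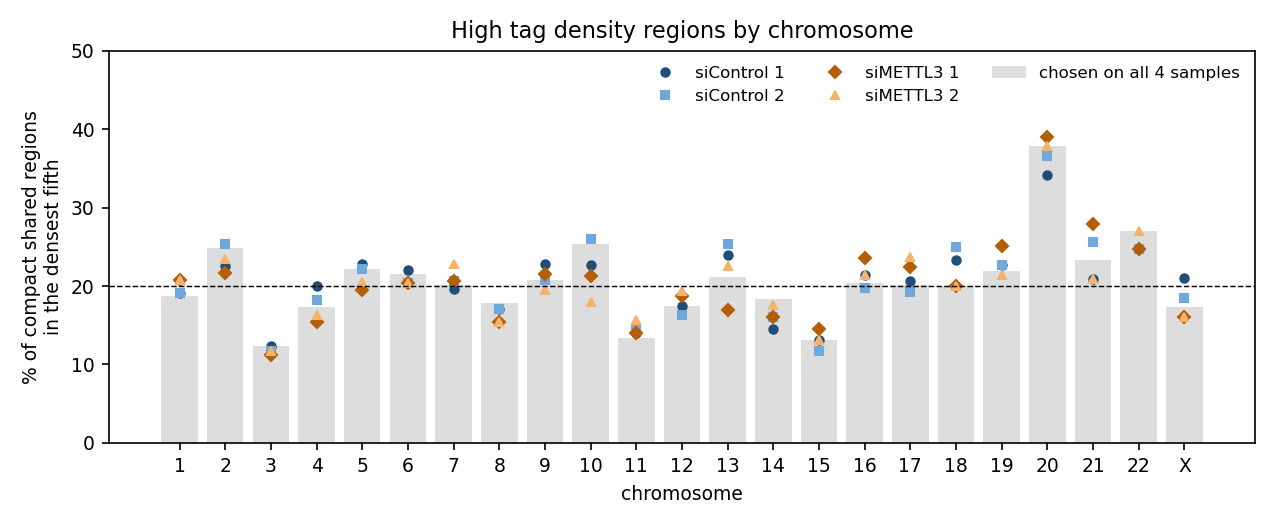
Share of the compact regions with a peak in all samples that fall in the top 20% by tag density, by chromosome. Bars use the average rank over 4 samples, symbols rank each sample alone, and the dashed line marks 20%; chromosome 20 stands at 37.8% and between 34.1% and 39.0% in single samples.

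Some dense regions were neighbors. Of the 707, 56 (7.92%) had another of them within 10 kb and 145 (20.5%) within 50 kb, so neighboring regions may belong to the same transcript and are not independent. The largest run joined 4 regions between chr7:5396119-5397265 and chr7:5427153-5429449. Its density ranged from 278 tags per kb in chr7:5398879-5399692 in siMETTL3 replicate 1 to 969 in chr7:5427153-5429449 in the same sample. A further 11 runs held 3 regions and 54 held 2. Having any compact region within 10 kb was about as common here (17.8%) as for the other compact regions (16.9%).

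The comparison of siMETTL3 with siControl asks whether the mark at these sites changed when its writer was reduced. Median log2 fold enrichment over the 707 regions was 1.94 ± 0.013 in siMETTL3 and 1.95 ± 0.026 in siControl (SD, n = 2 each), so the groups differed by −0.0055, less than replicates did. Over all 3875 regions with a peak in every sample the difference was 0.0018. Enrichment is a ratio within each sample, so a change common to all regions may not be seen in it, and sites that lost their peak are not among these regions. In the limma fit over the 3875 regions with Benjamini-Hochberg adjustment, 0% of all regions and 0 of the 707 reached an adjusted p of 0.05, and the smallest adjusted p among the 707 was 0.394. An unadjusted p under 0.05 was found for 30 of the 707 (4.24%), against 9.6% of all regions tested. Of the 30, 18 were higher in siMETTL3, where 4.65% of all regions were, and 12 were lower, where 4.95% of all regions were. The gap from the other regions was narrower under another model of the spread. With limma's trend and robust settings the number was 57 (8.06%), against 9.5% of all regions tested. Fits with a sample left out leave a lone sample in its group, so their small p-values are not compared here.

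Differences in these regions were small. Group means differed by at least 0.5 on the log2 scale in 21 of the 707 (2.97%), 13 of them higher and 8 lower in siMETTL3, against 7.46% of all regions tested, and by at least 1 in 0. Both siMETTL3 values were above both siControl values in 144 regions (20.4%), against 20.6% of all regions tested. Both were below in 165 (23.3%), against 21.1% of all regions tested, and this order turned with enrichment centred on each sample's median, which gave 145 higher and 132 lower, against 21.6% and 21.8% of all regions tested. These shares lay near the background. Replicates also differed less here than in the other compact regions, and only a little less than in the broad ones. The median absolute difference between replicates was 0.12 on the log2 scale in siControl and 0.15 in siMETTL3, against 0.20 and 0.24 in the other compact regions. In the broad regions it was 0.15 and 0.16. Across the groups it was 0.15 to 0.18 in the dense regions, 0.23 to 0.27 in the other compact ones and 0.17 to 0.21 in the broad ones.

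**Figure D4:**
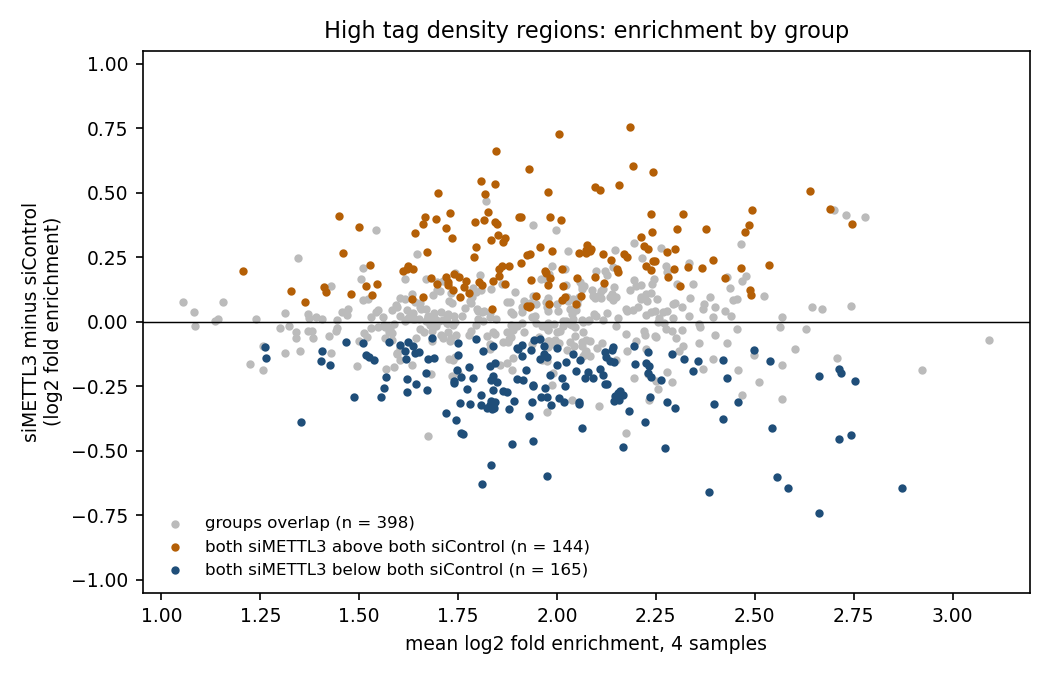
Difference in log2 fold enrichment, siMETTL3 minus siControl, against the mean log2 fold enrichment over 4 samples, with 1 point per high tag density region. Colors mark the 144 regions with both siMETTL3 values above both siControl values and the 165 with both below; the largest difference is 0.75 and none passed the adjusted test.

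Among regions whose groups did not overlap, the largest difference towards siMETTL3 was in chr14:75935844-75937312. Its enrichment was 3.40 and 3.60 in siControl and 5.43 and 6.41 in siMETTL3, a difference of 0.75 on the log2 scale (SE 0.17, limma adjusted p = 0.394). Its tags went the other way, with 997 and 1027 in siControl and 667 and 470 in siMETTL3 in peaks of similar length. Fewer tags thus stood beside a higher ratio in both siMETTL3 samples. In chr11:65728817-65729810 the enrichment was 3.14 and 3.10 in siControl and 5.55 and 4.80 in siMETTL3 (difference 0.73, SE 0.17, limma adjusted p = 0.394). Its peaks had 693 and 667 bases in siControl and 994 and 745 in siMETTL3, with 386, 411, 468 and 394 tags. The peaks were longer in siMETTL3, the tags were similar, and the summits lay within 2 bases of each other in all 4 samples.

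The next were chr1:25071707-25072526, with 2.95 and 2.77 in siControl and 4.09 and 5.00 in siMETTL3, chr2:27255451-27256432, with 3.71 in both siControl samples and 4.95 and 6.41 in siMETTL3, and chr19:8509351-8510270, with 3.49 and 2.76 against 3.87 and 5.66. In chr19:8509351-8510270 the nearest values of the groups, 3.49 and 3.87, lay closer together than the siMETTL3 samples did. Of these 5 regions, 4 spanned less than 1000 bases, 4 had longer peaks in both siMETTL3 samples than in both siControl samples, and all 5 had a lower mean density in siMETTL3 after division by the sample median. In chr11:65728817-65729810 the groups overlapped in that density.

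In the other direction, chr13:115056817-115057688 had an enrichment of 11.9 and 5.65 in siControl and 4.61 and 5.20 in siMETTL3. The difference of −0.74 on the log2 scale (SE 0.33, limma adjusted p = 0.533) came mostly from siControl replicate 1, as the other 3 values lay close together. The same held for chr2:99977461-99978482, with 8.59 and 5.02 in siControl and 3.88 and 4.45 in siMETTL3. Its tags were also lower in siMETTL3, 452 and 472 against 520 and 624, in peaks of 1014 to 1021 bases in every sample. In chr2:180809678-180810641 the enrichment was 8.43 and 6.66 in siControl and 4.01 and 5.74 in siMETTL3, and in chr6:111982232-111983348 it was 3.94 and 4.83 against 3.39 and 2.35.

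In chr5:65465735-65467119 the peaks differed in length as well, and the enrichment was 9.77 and 8.56 in siControl and 5.20 and 6.60 in siMETTL3 (difference −0.64, SE 0.19, limma adjusted p = 0.413). Its peaks had 1385 and 1235 bases in siControl and 711 and 630 in siMETTL3, and its tags were 427, 469, 315 and 406. In tags per kb its density was 443 and 644 in siMETTL3 against 308 and 380 in siControl, and after division by the sample median it was 0.75 higher on the log2 scale in siMETTL3, with no overlap of the groups. Shorter peaks and a higher density thus stood beside a lower ratio. The summits stayed within 7 bases of each other, so the highest point of the signal was at the same place in both groups.

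**Figure D5:**
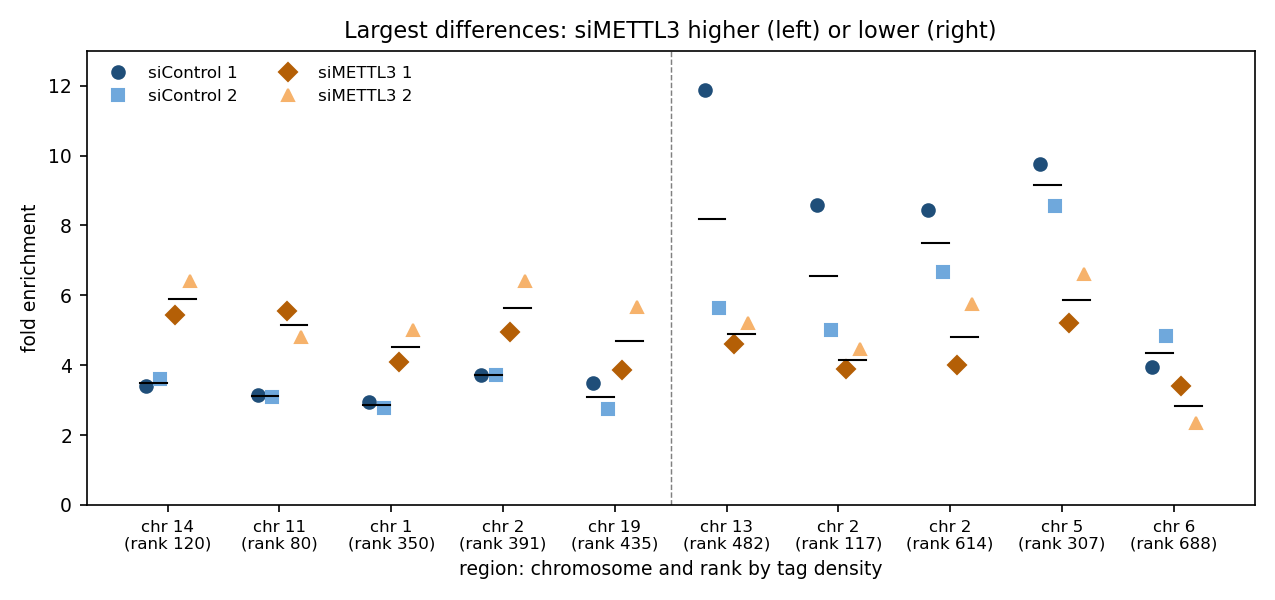
Fold enrichment in each sample for the 5 high tag density regions with the largest difference towards siMETTL3 (left) and the 5 with the largest towards siControl (right), among regions whose groups do not overlap. Black lines are group means on the log2 scale, n = 2 each; in the chromosome 13 region siControl replicate 1, at 11.9, lies far above the other 3 samples.

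Tag density itself, given as a description since it chose the regions, hardly differed between the groups once divided by each sample's median over the compact regions. The median over the 707 regions was then 1.08 ± 0.077 on the log2 scale in siMETTL3 and 1.07 ± 0.019 in siControl (SD, n = 2 each). Without that division the difference was −0.11, within the spread between replicates, and it was −0.25 without siMETTL3 replicate 1 and 0.032 without siMETTL3 replicate 2. After division, both siMETTL3 values were above both siControl values in 172 regions (24.3%), against 27.9% of all regions tested, and below in 166 (23.5%), against 25.7% of all regions tested.

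Differences in density and in enrichment were only weakly related. Across the 707 regions, Pearson's r between the 2 differences, siMETTL3 minus siControl, was −0.21. It was −0.23 in the broad regions, 0.13 in the other compact regions and 0.43 in the 20% of compact regions with the lowest density, so a negative value was not particular to the dense regions. Groups did not overlap in both measures, with opposite directions, in 97 regions (13.7%), against 10.8% of all regions tested. They did so with the same direction in 48 regions (6.79%), against 12.7% of all regions tested. In the broad regions the same shares were 12.9% and 7.94%. The difference in enrichment correlated with that in peak length at r = 0.32 and with that in tag number at r = 0.0029. These values describe regions that share the same 4 libraries, and density contains both length and tags.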

How the data were processed

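m6A-seq peaks of HepG2 cells were analysed in 4 immunoprecipitated samples, 2 per group, grouped by the sample labels. The input libraries have no list of their own here. Per the labels, the submitters' processing notes name CASAVA 1.8.2, MACS 1.4.2 and the build hg19. The aligner is not given in the sources used here. The authors deposited 1 peak list per immunoprecipitated sample, with the tags in each peak as a raw count, not normalized for library size. They also deposited the caller's score, which is −10·log10 of its p-value. Fold enrichment was deposited as a linear ratio, and the FDR in percent. Counts belong to each sample's own interval, so no count model was fitted.

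From these, regions and densities were computed as described above, and where a sample had several peaks in a region, the highest enrichment was used. Log2 enrichment, without a pseudocount, was tested over 3875 regions with limma 3.58.1 (lmFit, eBayes, Benjamini-Hochberg) in R 4.3.3, and the step was tested on simulated data. Python 3.11.15, numpy 2.4.6, pandas 2.3.3 and matplotlib 3.10.9 were used. The regions and lists were chosen with earlier results of these data known. Regions named were the 10 densest, the 3 on either side of the limit, the 5 with the largest difference in each direction among non-overlapping groups, and the 3 with the highest and lowest enrichment. Alternatives changed the score limit, the density, the size limit, the share kept, the enrichment scale, the limma settings, the block and the samples. Gene lists, gene names and motif searches at summits were planned for a genome of the same build and were not run. The deposited lists give no gene names.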

Additional observations from a re-analysis of the deposited data

How the results depend on the processing

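The limma fit called 0 regions in each of the 16 alternatives, among them the replicate block and each sample left out in turn. With a sample left out, its group is a lone sample assumed to vary like the other group, so counts of small p-values are not given for these fits. In the main limma fit 30 of the 707 regions had an unadjusted p under 0.05, or 372 over all regions. With limma's trend and robust settings there were 57, or 368 over all regions. Deviations of same-numbered samples were hardly correlated across regions (r = 0.011), but this r does not register a shift common to all regions. Over all regions, replicate 2 was above replicate 1 by a median of 0.074 in siControl and 0.12 in siMETTL3 on the log2 scale of enrichment. The smallest adjusted p of the limma fit over all regions was 0.065 with the replicate block and 0.373 without it. With the replicate block the difference in median log2 enrichment was again −0.0055 (SD of the paired differences 0.013), and 42 of the 707 regions (5.94%) had an unadjusted p under 0.05, against 12.8% of all regions. Keeping the top 10% left 353 regions, as its construction sets, and moved the difference in log2 enrichment from the other compact regions to −0.51 (the cause was not tested). Regions with non-overlapping groups were 43.7% of the 707, against 41.7% of all regions, and 39.2% with median-centred enrichment, against 43.4% (the cause was not tested). With 1 sample left out in turn they were 65.1% to 75.8%, since 3 values overlap less often. The share over all regions is not given for that step, so these values say nothing particular to the 707. The same step gave −0.024 to 0.013 for the difference between the groups in median log2 enrichment, −0.45 to −0.40 for the difference from the other compact regions, −0.25 to 0.032 for the difference in log2 density, and 24 to 48 bases for the distance between outermost summits. The number of regions was 523 with a score of at least 70 and 579 under 2000 bases. Of the regions chosen on the siControl samples alone 647, and on the siMETTL3 samples alone 649, were among the 707. The motif share at summits could not be run without a genome of the same build. Unknown library depth limits every statement on tag numbers.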
